A study of Mus musculus with 12 samples.

Results

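Toll-like receptors are sensors of microbial molecules that mature B cells carry in addition to their antigen receptor. The part of the data described here is 10 genes of 37991 in the count table. They are the receptors Tlr1, Tlr3, Tlr4, Tlr6, Tlr7 and Tlr9, the receptor-like protein Cd180 with its partner Ly86, the chaperone Unc93b1 and the adaptor Myd88. They were chosen by gene symbol, and all 10 were found once in the table and passed the filter on low counts.

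The RNA came from splenic B cells of mice aged 8 weeks, purified by removing other cell types and activated CD43+ cells. Control cells carried the CD23-iCre transgene alone and are called Cre-only. The Runx1 c-k/o cells carried it together with Runx1 fl/fl alleles, whose exon 4 it deletes. The CD23 promoter is active from the transitional B cell stage onward, and both genotypes carried Cre. Both genotypes, the second called c-k/o below, were sampled at rest (0 h) and 3 h after adding anti-IgM plus IL-4. This gave 4 groups of 3 biological replicates, 12 samples in all. No sample was cultured for 3 h without these agents, so their effect and that of the culture itself cannot be told apart.

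Toll-like receptors fall into a surface group and an endosomal group. At the cell surface, Tlr1 and Tlr6 pair with Tlr2 to bind bacterial lipopeptides, and Tlr4 binds lipopolysaccharide. Cd180 resembles Tlr4 outside the cell but lacks the signaling domain inside it, is found mainly on B cells and modulates their response to lipopolysaccharide, and Ly86 is the small secreted protein that binds it. In endosomes, Tlr3 binds double-stranded RNA, Tlr7 single-stranded RNA and Tlr9 unmethylated CpG DNA. Unc93b1 carries the endosomal receptors out of the endoplasmic reticulum. Myd88 passes on the signal of these Toll-like receptors except Tlr3.

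Between 14442251 and 23641552 counts were assigned to genes per library. The values below are normalized CPM, which are counts scaled to a common library size (CPM) after TMM normalization, and 3 counts lay between 0.127 and 0.208 CPM before scaling. Runx1, the deleted gene, was counted over all its exons and these counts do not separate exon 4. Its level was 83.6, 81.8 and 86.7 in resting Cre-only and 102, 95.7 and 103 in resting c-k/o cells. At 3 h it was 38.5, 37.0 and 34.9 against 47.3, 70.6 and 74.5, higher in c-k/o cells by 0.80 on the log2 scale (edgeR, adjusted p = 0.00769, called in 14 of 15 alternatives). The counts thus give no check of the deletion. Replicate 2 of the resting c-k/o cells and replicate 1 of the 3-h c-k/o cells stood apart from their groups. A chi-square statistic per degree of freedom between each of them and its fellow replicates was 30.7 to 85.1, against 3.06 to 14.0 for all other pairs of replicates. The B cell markers Cd79a, Cd79b, Ms4a1 and Pax5 were present in every library and summed to 4201 to 5177 at rest. All 4 fell on activation in both genotypes, to sums of 1007 to 1346. The level of Fcer2a, which encodes CD23, was 893.5 to 1152 in all libraries. Markers of neutrophils, T cells and NK cells summed to at most 7.47 in any library, and those of dendritic cells to 29.4 to 39.0. On activation 1 of the 6 dendritic markers was called higher and 3 lower in Cre-only cells, and 1 and 4 in c-k/o cells. Of all tested genes 38.6% and 36.4% were called higher and lower in Cre-only cells, and 37.7% and 36.6% in c-k/o cells. In Cre-only cells Zbtb46 was at 1.01 to 1.92 at rest and 15.4 to 19.7 at 3 h, and Flt3 at 16.1 to 17.3 and 5.415 to 7.38. Erythroid markers summed to 36.1 to 253 in resting Cre-only and 246 to 410 in resting c-k/o cells, and to 12.3 to 136 and 115 to 203 at 3 h. None of the 4 was called by edgeR or DESeq2 in any comparison, 1 had an unadjusted p under 0.05, on activation in c-k/o cells, and their part in the results was not tested. Macrophage and monocyte markers are given with Tlr3.

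Tlr1 and Tlr6 are neighbors in mm9, both read from the minus strand, at chr5:65316050-65324000 and chr5:65344345-65351287, with 20344 bases between them. Their transcripts are close enough in sequence to touch the counts. Of the 2603 windows of 50 bases in the Tlr1 transcript, 17.4% occur letter for letter in that of Tlr6. The longest identical stretch has 229 bases, lies in the coding part of both genes and covers chr5:65316776-65317004 in exon 3 of Tlr1 and chr5:65345067-65345295 in exon 2 of Tlr6. It is taken from the GENCODE transcripts for mm9 and shown because a read pair that falls wholly inside it cannot be assigned to one of them. How the counting treated such reads is not given in the sources used here, so the split of counts between this pair is uncertain.
Tlr1 and Tlr6, shared coding stretch: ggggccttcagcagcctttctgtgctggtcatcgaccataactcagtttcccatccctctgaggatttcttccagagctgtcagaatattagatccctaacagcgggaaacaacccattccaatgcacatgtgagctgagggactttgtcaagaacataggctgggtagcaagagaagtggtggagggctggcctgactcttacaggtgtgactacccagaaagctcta

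The RefSeq promoter table (GRCm38.p6) held 10 start sites for 7 of the 10 genes, and none for Tlr4, Tlr7 and Unc93b1. The 250 bases before each start site were searched on both strands for the letters TGTGGT (core of the RUNX motif), GAGGAA (core of the PU.1 motif), GAAANNGAA (core of the interferon-stimulated response element, ISRE) and CACGTG (E-box). Of all 32851 windows of this length in the table, 14.0% held the RUNX letters, 23.3% the PU.1 letters, 7.13% the ISRE letters and 6.02% the E-box. Among the windows of these genes, the RUNX letters occurred only before the first Tlr6 start site, starting 132 bases upstream. A pair of partly overlapping ISRE matches on the other strand started 115 and 109 bases upstream in the same window. The PU.1 letters started 23 bases before the first Tlr1 site and 112 bases before the Tlr9 site, the ISRE letters 40 bases before the Myd88 site, and the E-box 195 bases before the second Tlr1 site. The windows of Tlr3, Cd180 and Ly86 and of the second Tlr6 site held none of these letters. A match describes the letters only and is no measure of binding. The windows shown are those of the surface receptor with the RUNX letters, of its neighbor, and of the receptor and the adaptor that did not fall on activation, with matches in capitals. They lie at chr5:64959167-64959416 on the minus strand for Tlr6, chr5:64933559-64933808 on the minus strand for Tlr1, chr9:106222348-106222597 on the plus strand for Tlr9 and chr9:119340019-119340268 on the minus strand for Myd88.
Tlr6: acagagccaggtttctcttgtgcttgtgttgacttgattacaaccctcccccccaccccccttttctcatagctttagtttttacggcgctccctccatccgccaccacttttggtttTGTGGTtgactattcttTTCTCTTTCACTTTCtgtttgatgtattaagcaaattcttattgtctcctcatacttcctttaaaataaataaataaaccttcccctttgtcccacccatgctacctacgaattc
Tlr1: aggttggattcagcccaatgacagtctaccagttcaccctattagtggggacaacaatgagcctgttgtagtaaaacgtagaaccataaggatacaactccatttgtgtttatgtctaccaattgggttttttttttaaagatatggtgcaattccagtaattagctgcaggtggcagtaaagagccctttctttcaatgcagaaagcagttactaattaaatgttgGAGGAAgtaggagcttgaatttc
Tlr9: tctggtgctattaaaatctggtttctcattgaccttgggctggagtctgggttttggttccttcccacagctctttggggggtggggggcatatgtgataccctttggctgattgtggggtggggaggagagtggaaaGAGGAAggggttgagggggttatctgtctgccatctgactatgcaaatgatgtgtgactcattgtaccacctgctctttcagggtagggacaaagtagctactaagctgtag
Myd88: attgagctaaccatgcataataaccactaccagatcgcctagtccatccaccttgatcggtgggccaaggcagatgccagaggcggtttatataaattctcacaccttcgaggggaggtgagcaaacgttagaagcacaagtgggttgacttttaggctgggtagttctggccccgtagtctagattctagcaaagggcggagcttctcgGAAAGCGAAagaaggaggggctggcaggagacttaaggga

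Levels can be compared between genes only per length, here as normalized CPM per kilobase of merged exons. In resting Cre-only cells Unc93b1 was highest at 251 ± 8.79 per kb (SD, n = 3), followed by Ly86 at 175 ± 6.89 and Cd180 at 84.9 ± 7.18. Tlr1 was the highest of the receptors at 49.7 ± 3.29 per kb. Tlr9 at 28.1 ± 1.61 and Tlr7 at 15.4 ± 0.346 came next, above Myd88 at 10.4 ± 0.291. Tlr6, Tlr4 and Tlr3 were the lowest members, at 2.83 ± 0.360, 2.18 ± 0.142 and 1.33 ± 0.326 per kb. From Unc93b1 down to Tlr3 the level fell 189-fold, and in this group the libraries of no 2 neighbors in the order overlapped. With the length of the longest transcript in place of merged exons, Tlr4 stood above Tlr6 at 2.97 per kb, and Cd180 was at 144 per kb in the same place of the order.

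After 3 h the order was another. In Cre-only cells Tlr7 was at 45.3 ± 2.39 per kb (SD, n = 3) and Tlr9 at 40.0 ± 4.57, both above Tlr1 at 6.12 ± 0.564. Unc93b1 at 65.0 ± 5.43 and Ly86 at 61.8 ± 1.89 overlapped in their libraries, as did Tlr7 with Tlr9 and Tlr4 at 0.719 ± 0.0786 with Tlr6 at 0.687 ± 0.155. Cd180 at 30.3 ± 2.13 per kb lay below Tlr9 with merged exons, but at 51.5 per kb above Tlr7 with the longest transcript. Thus before activation Tlr1 was the leading receptor transcript of the 6 and after it Tlr7 and Tlr9 were.

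In c-k/o cells the resting order was the same from Unc93b1 to Myd88. Tlr9 at 21.9 ± 3.70 per kb (SD, n = 3) and Tlr7 at 18.6 ± 0.798 overlapped there. Tlr3 at 2.13 ± 0.527, Tlr4 at 1.96 ± 0.503 and Tlr6 at 1.94 ± 0.391 overlapped too. At 3 h Ly86 was at 82.7 ± 14.8 per kb and Unc93b1 at 78.5 ± 7.87, followed by Tlr7 at 39.0 ± 6.39, Tlr9 at 27.9 ± 13.2, Cd180 at 24.9 ± 4.47 and Myd88 at 17.8 ± 2.40. In that order each of these overlapped the next, other than Unc93b1 and Tlr7. Tlr1 at 6.31 ± 1.35 per kb lay below all of them. With the longest transcript Cd180 was at 42.4 per kb, above Tlr7 at 40.8, and Unc93b1 at 98.4 was above Ly86.

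**Figure D1:**
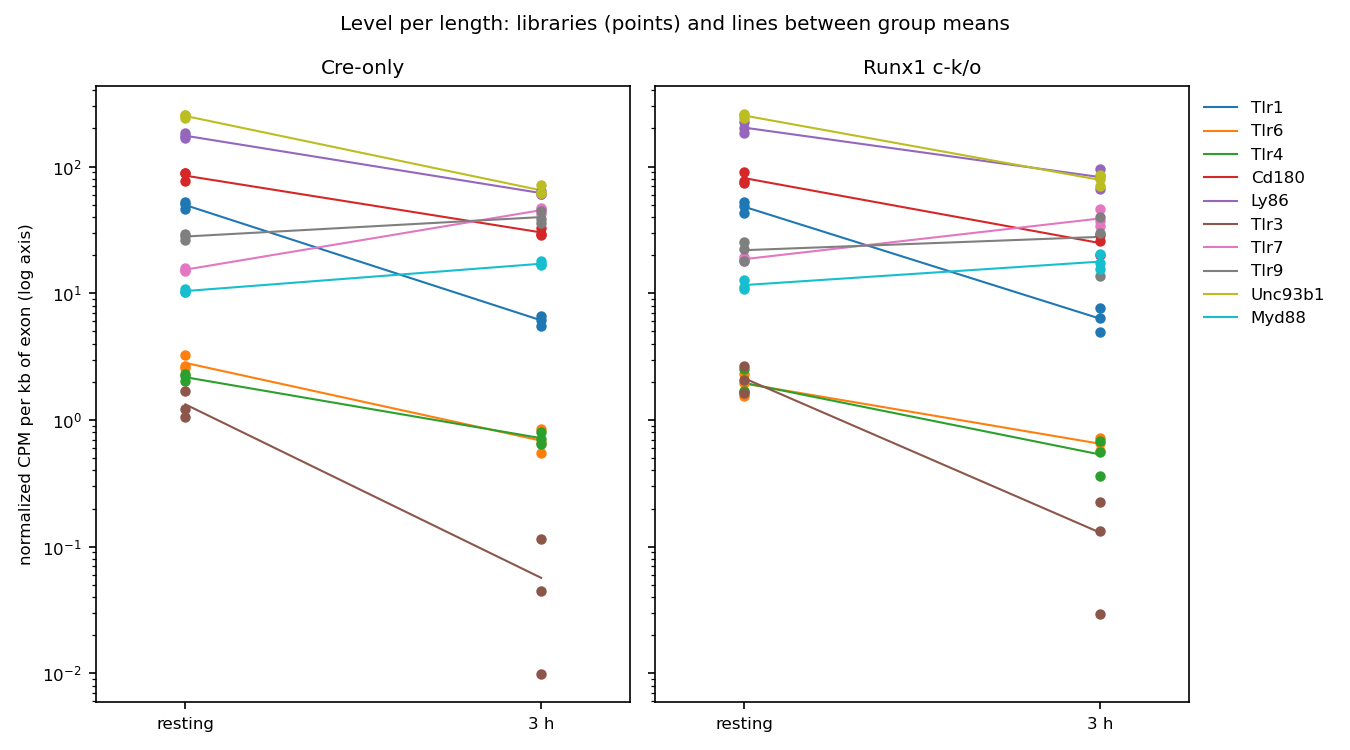
Level per length of the 10 genes at rest and after 3 h, in normalized CPM per kb of merged exons on a log axis, with Cre-only cells on the left and c-k/o cells on the right. Points are libraries and lines join group means; Tlr7 rises past Tlr1, and Tlr3 is the lowest gene at 3 h in both genotypes.

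The comparison of 3-h with resting cells asked how these genes changed over 3 h with anti-IgM plus IL-4, here called activation. In Cre-only cells 9 of the 10 had an adjusted p below 0.05 (quasi-likelihood test of edgeR, Benjamini-Hochberg adjustment over 13538 genes), where 75.0% of all tested genes were called. The expression of 7 fell (36.4% of all tested genes fell) and that of Tlr7 and Myd88 rose (38.6% rose). In c-k/o cells the calls were the same 7 falls and 2 rises, where 74.3% of all tested genes were called, 36.6% lower and 37.7% higher. The median log2 fold change of the members was -1.55 in Cre-only and -1.63 in c-k/o cells, against 0.03 and 0.01 over all tested genes. Tlr3 could enter the test only through its resting libraries, and without it 6 of 9 fell in each genotype, with medians of -1.50 and -1.57. Without both libraries that stood apart, an alternative chosen after the data were seen, all 10 were called in each genotype, with Tlr9 added to the rises. The levels are relative to all counted RNA, and fewer cells of a type and less RNA per cell cannot be told apart.

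**Figure D2:**
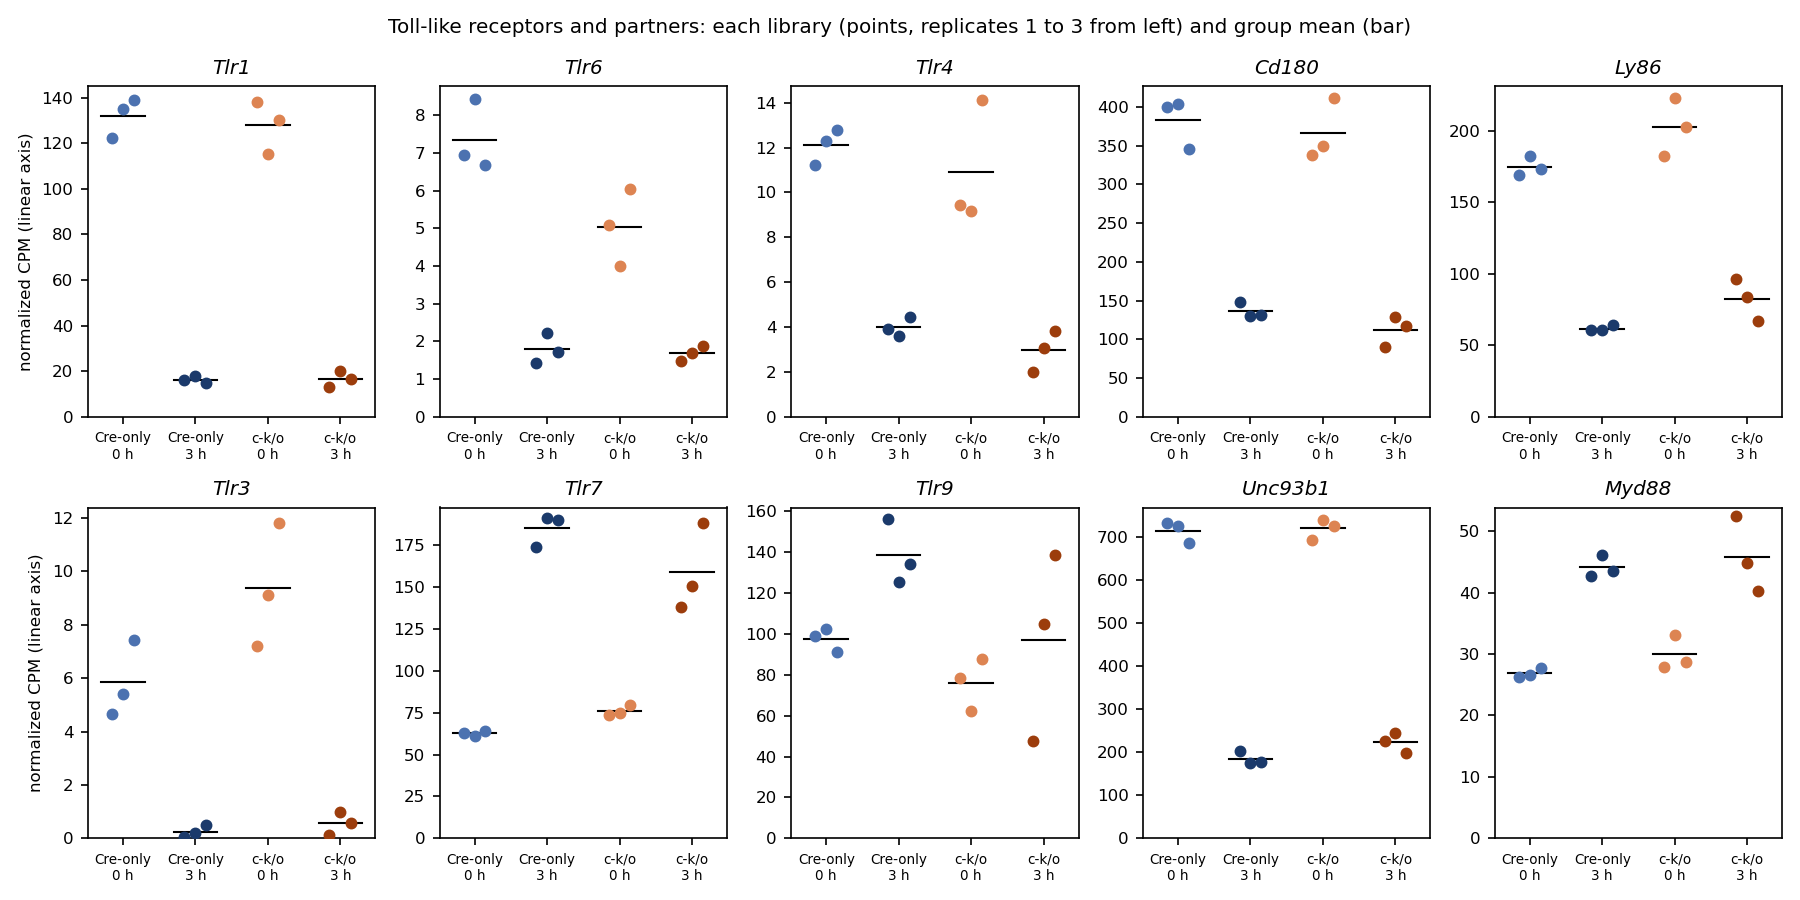
Normalized CPM of each of the 10 genes in every library on linear axes from 0, with points for replicates 1 to 3 and bars for group means. The 3-h libraries lie below the resting libraries of the same genotype for Tlr1, Tlr6, Tlr4, Cd180, Ly86, Tlr3 and Unc93b1 and above them for Tlr7 and Myd88, while the Tlr9 libraries of c-k/o cells at 3 h spread from 47.5 to 139.

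Among the surface receptors, Tlr1 fell the most. In Cre-only cells, replicates 1 to 3 were at 122, 135 and 139 normalized CPM at rest and at 16.3, 17.7 and 14.7 after 3 h. The c-k/o values were 138, 115 and 130 at rest and 13.1, 20.3 and 16.8 after 3 h. All 6 libraries of 3-h cells lay far below the 6 of resting cells, and the genotypes overlapped at both times. The fall was 8.12-fold in Cre-only (log2 fold change -3.02, standard error 0.146, adjusted p = 1.48e-08) and 7.64-fold in c-k/o cells (log2 -2.93, standard error 0.146, adjusted p = 2.46e-08).

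Tlr6, the neighbor of Tlr1, was far lower and fell less. Its level was 6.94, 8.43 and 6.69 in resting and 1.42, 2.22 and 1.72 in 3-h Cre-only cells. Resting c-k/o cells had 5.09, 4.01 and 6.04, against 1.48, 1.71 and 1.89 at 3 h. The log2 fold change was -2.06 (standard error 0.209, adjusted p = 2.10e-06) in Cre-only and -1.57 (standard error 0.217, adjusted p = 3.13e-05) in c-k/o cells. At rest the 3 c-k/o libraries lay below the 3 Cre-only libraries, where 23.7% of all tested genes did not overlap, and at 3 h the genotypes overlapped.

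Tlr4, the lipopolysaccharide receptor at chr4:66488618-66591318, was at 11.2, 12.3 and 12.8 normalized CPM in resting and 3.93, 3.59 and 4.46 in 3-h Cre-only cells. Levels of 9.43, 9.18 and 14.1 in resting c-k/o cells stood against 1.99, 3.08 and 3.83 at 3 h. It fell 3.02-fold (adjusted p = 2.63e-05) and 3.65-fold (adjusted p = 1.09e-05). With 1 factor of unwanted variation in edgeR the log2 fold change was -0.82 in Cre-only and -1.09 in c-k/o cells, against -1.60 and -1.87. Its resting and 3-h libraries did not overlap in either genotype. The macrophage and monocyte markers given with Tlr3 fell in the same libraries as Tlr4 and Tlr6.

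Cd180 and Ly86, whose products form 1 complex, both fell in each genotype, by similar amounts in Cre-only cells. Cd180, at chr13:103483638-103529709 of mm9, was at 399, 403 and 345 in resting and at 147, 130 and 132 in 3-h Cre-only cells. For c-k/o cells the values were 337, 349 and 411 at rest and 90.1, 129 and 118 at 3 h. The lowest resting library, at 337, was well above the highest 3-h library, at 147. The log2 fold change was -1.49 (standard error 0.136) in Cre-only and -1.70 (standard error 0.137) in c-k/o cells. Cd180 shares its position with Mast4 on the other strand, and since the strand setting of the counting is not given in the sources used here, a part of its counts may belong to that gene. Ly86, which lies on the same chromosome at chr13:37437214-37510905, was at 169, 182 and 173 in resting and 60.7, 60.4 and 63.8 in 3-h Cre-only cells. With c-k/o cells it was at 182, 223 and 202 at rest and 96.4, 84.0 and 66.9 at 3 h. It fell by 1.50 on the log2 scale (standard error 0.123) and by 1.30 (standard error 0.122). The adjusted p of these 4 falls ran from 3.38e-07 to 1.23e-06. At 3 h every Ly86 library of c-k/o cells lay above the 3 Cre-only libraries, and every Cd180 library below them. The genotypes did not overlap for 21.8% of all tested genes at that time. For Cd180 the nearest libraries were at 129.3 and 130.1, and this difference was called in 0 of 15 alternatives.

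The endosomal receptors parted. Tlr7, at chrX:163742861-163768490, was at 62.9, 61.3 and 64.2 in resting and at 174, 191 and 190 in 3-h Cre-only cells. It was at 73.4, 74.9 and 79.6 in resting c-k/o cells and at 138, 151 and 188 at 3 h. Every 3-h library was thus above every resting one, and replicate 3 of the 3-h c-k/o cells alone reached the Cre-only range. The rise was 2.95-fold in Cre-only (log2 1.56, standard error 0.108, adjusted p = 9.46e-08) and 2.09-fold in c-k/o cells (log2 1.07, standard error 0.107, adjusted p = 2.04e-06). It passed the threshold in all 15 alternatives in each genotype.

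Tlr9, at chr9:106124929-106129207, was at 98.7, 102 and 91.3 in resting and at 156, 126 and 134 in 3-h Cre-only cells, without overlap. The c-k/o libraries held 78.3, 62.2 and 87.6 at rest and 47.5, 105 and 139 at 3 h. The value of 47.5 came from replicate 1, which stood apart from its group over all genes, and the other 3-h libraries lay above the resting ones. The log2 fold change was 0.51 in Cre-only (standard error 0.279, adjusted p = 0.115) and 0.35 in c-k/o cells (standard error 0.281, adjusted p = 0.274), and neither was called. Without replicate 1 of the 3-h c-k/o cells it was 0.66 in that genotype (adjusted p = 0.0022). With only the 2 groups compared in the fit, it was 0.44 in Cre-only cells (adjusted p = 0.000409). With 1 factor of unwanted variation in edgeR it was 1.74 in Cre-only (adjusted p = 0.000112) and 1.53 in c-k/o cells (adjusted p = 0.00026).

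Tlr3, at chr8:46481019-46495962, was low at rest and close to the floor after 3 h. In Cre-only cells 97, 95 and 120 counts at rest, or 4.67, 5.41 and 7.44 normalized CPM, stood against 1, 3 and 8 counts after 3 h. For the c-k/o cells, 123, 141 and 178 counts at rest, or 7.20, 9.11 and 11.8 normalized CPM, stood against 2, 15 and 10. Resting and 3-h libraries did not overlap, and 3 of the 6 libraries at 3 h held 3 counts or fewer. The fitted log2 fold change was -4.65 (standard error 0.548, adjusted p = 7.66e-06) in Cre-only and -4.03 (standard error 0.469, adjusted p = 7.24e-06) in c-k/o cells. Tlr3 passed the low-count filter through its resting libraries, and with a filter of at least 10 counts in every sample it was not tested. The size of its fall is loosely set, with alternatives from -5.69 without replicate 3 of the 3-h Cre-only cells to -3.36 in that genotype. In c-k/o cells they ran from -4.63 without replicate 2 of the 3-h cells to -2.85.

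Macrophage and monocyte markers fell on activation, as did Tlr3 and 6 other members. Summed over Lyz2, Csf1r, Adgre1, Itgam, Cd14 and Fcgr1, they were at 251 to 305 normalized CPM in resting and at 17.6 to 23.9 in 3-h Cre-only cells. The sums were 213 to 424 in resting c-k/o cells and 19.0 to 46.8 at 3 h. All 6 were called lower in each genotype, with log2 fold changes from -5.33 to -2.29 in Cre-only cells, and none was at 0 in every library of a group. The lowest of these values was that of Fcgr1, with 1, 1 and 3 counts in 3-h Cre-only cells, and it and Cd14 entered the test through their resting libraries. Csf1r, the receptor for the macrophage growth factor, made up most of the sum at rest, with 139 to 283. In 3-h Cre-only cells it was at 5.16 to 8.16, and Adgre1 at 6.47 to 8.92. In 3-h c-k/o cells Csf1r was at 5.99 to 26.5 and Adgre1 at 7.07 to 11.55. Within groups the highest sum and the highest Tlr3 fell in the same library in 2 of the 4 groups, resting Cre-only and 3-h c-k/o cells. In 3-h Cre-only cells the sum was highest in replicate 1, at 23.9, where Tlr3 was lowest. In resting c-k/o cells the sum was highest in replicate 2, at 424, the library that stood apart over all genes, and Tlr3 in replicate 3. In that group Tlr4 was lowest in replicate 2, and so was Tlr6. With 3 libraries per group, the order of the libraries cannot tell which cells these transcripts came from. The part of macrophages or dendritic cells in the values of Tlr3, and of Tlr4, Tlr6 and the other members that fell, was not tested. The 4 B cell markers fell on activation as well, with log2 fold changes from -2.57 to -1.15 in Cre-only cells.

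**Figure D3:**
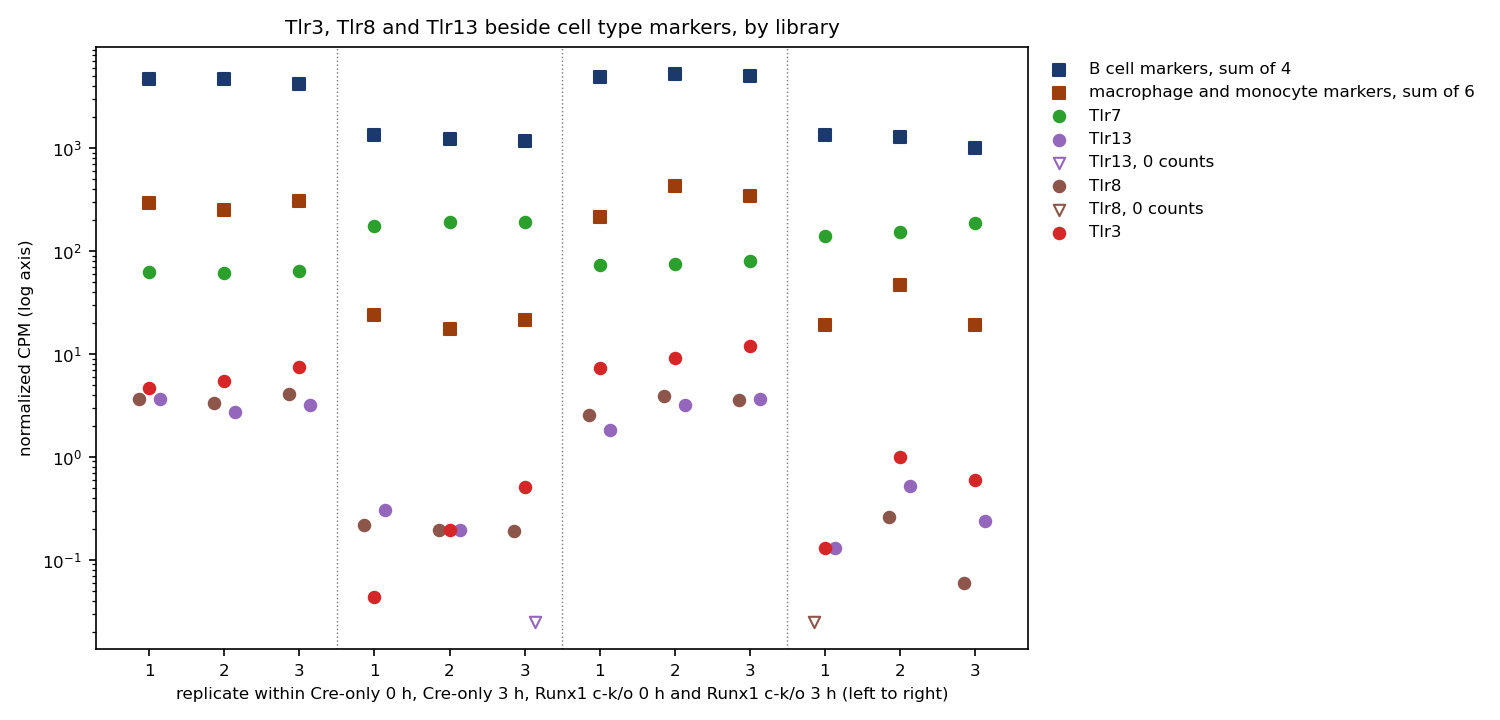
Normalized CPM on a log axis of Tlr3, Tlr8, Tlr13 and Tlr7 in every library, beside the summed markers of B cells and of macrophages and monocytes; replicates 1 to 3 of each group stand from left to right and an open triangle marks 0 counts. Tlr3, Tlr8, Tlr13 and the macrophage sum are low in all 3-h libraries, where Tlr7 is high.

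Unc93b1, at chr19:3935186-3949340, fell while Tlr7, one of the receptors its product carries, rose. It was at 732, 724 and 685 in resting and at 202, 175 and 176 in 3-h Cre-only cells. Resting c-k/o libraries were at 693, 739 and 725 and those of 3-h c-k/o cells at 227, 243 and 199. The resting libraries of the genotypes were intermixed, and every 3-h library lay at or below 243. It fell 3.86-fold in Cre-only (log2 -1.95, standard error 0.102, adjusted p = 1.83e-08) and 3.22-fold in c-k/o cells (log2 -1.69, standard error 0.101, adjusted p = 4.89e-08). Per length, the level of Unc93b1 in Cre-only cells was 251 against 15.4 for Tlr7 at rest and 65.0 against 45.3 at 3 h.

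Myd88, at chr9:119245052-119250529, rose. Its level was 26.3, 26.5 and 27.7 in resting and 42.7, 46.1 and 43.5 in 3-h Cre-only cells. Myd88 in c-k/o cells was at 27.9, 33.1 and 28.7 at rest and 52.5, 44.8 and 40.3 at 3 h. The rise was 1.64-fold (log2 0.72, standard error 0.107, adjusted p = 5.74e-05) and 1.53-fold (log2 0.62, standard error 0.107, adjusted p = 0.000205). With 1 factor of unwanted variation in DESeq2 it was 0.28 in Cre-only (adjusted p = 0.0838) and 0.21 in c-k/o cells (adjusted p = 0.227), and in edgeR 0.28 in c-k/o cells (adjusted p = 0.054). Acaa1a overlaps Myd88 on the other strand, with the same limit as for Cd180.

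**Figure D4:**
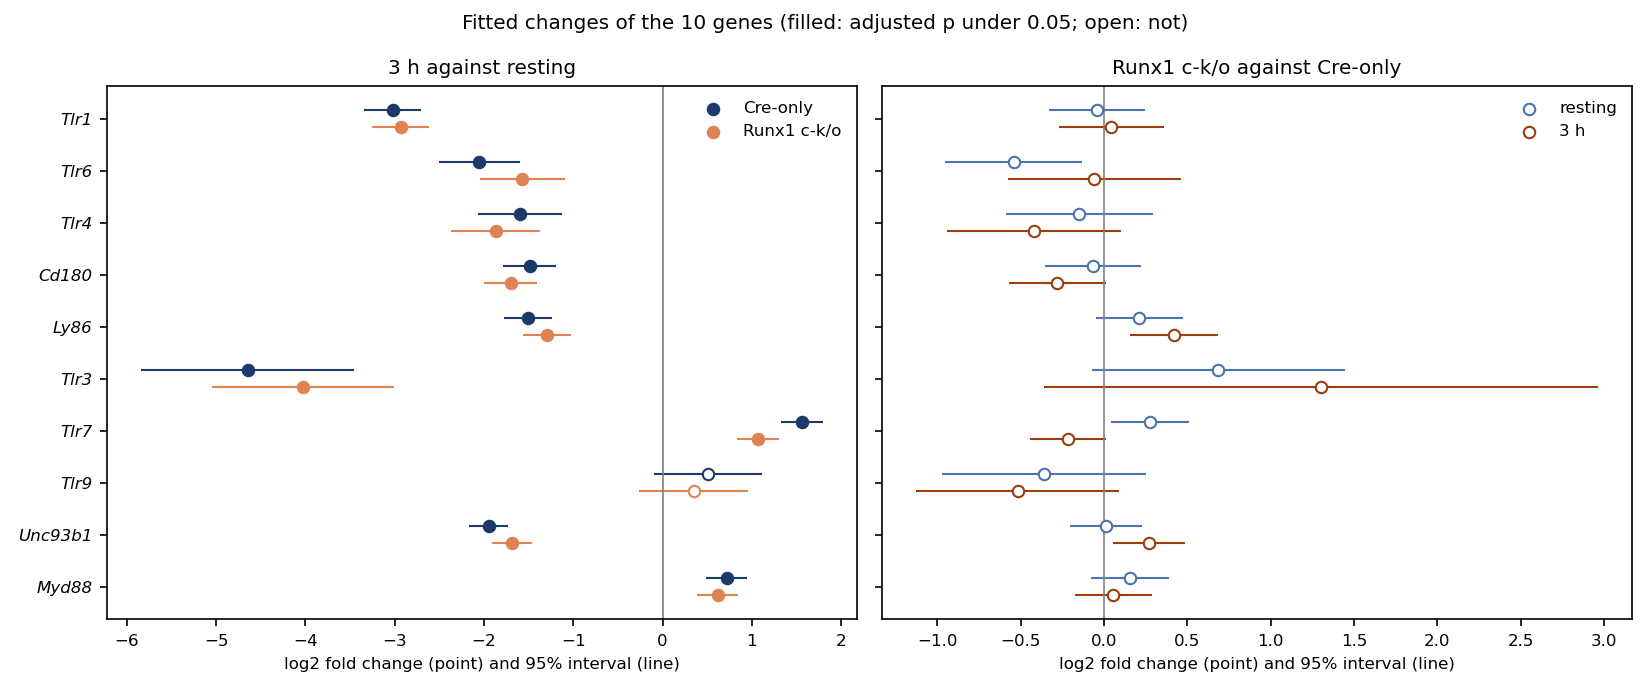
Fitted log2 fold changes of the 10 genes with 95% intervals, 3 h against rest on the left and c-k/o against Cre-only on the right; filled points passed the adjusted p of 0.05. On the left 9 of 10 points are filled in each genotype, 7 below 0 and 2 above, and on the right none is filled.

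The comparison of c-k/o with Cre-only cells asked whether loss of Runx1 changed these genes. None of the 10 was called by edgeR at rest, where 1.49% of all tested genes were called, and none at 3 h, where 2.77% were. At an unadjusted p under 0.05 there were 2 at rest, Tlr6 and Tlr7, where 11.1% of all tested genes were, and 2 at 3 h, Ly86 and Unc93b1, where 16.2% were. The Wald test of DESeq2 called 0 at rest and 2 at 3 h, the same Ly86 and Unc93b1, where it called 2.79% and 5.44% of all genes. The libraries of the genotypes did not overlap for 4 of the 10 genes at rest (Tlr6, Tlr7, Tlr9 and Myd88), where 23.7% of all tested genes did not. At 3 h this held for 2 genes (Cd180 and Ly86), where 21.8% of all tested genes did not overlap.

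The intervals say how large a difference these libraries leave room for. For Unc93b1 at rest the log2 fold change was 0.01, with a 95% interval from -0.20 to 0.23, and for Tlr1 it was -0.05 (-0.33 to 0.24). Cd180 at -0.07 (-0.35 to 0.22) and Myd88 at 0.16 (-0.08 to 0.39) were bounded as closely. Tlr9 at -0.36 (-0.97 to 0.25), Tlr4 at -0.15 (-0.59 to 0.29) and Tlr3 at 0.69 (-0.08 to 1.45) were not. At 3 h the interval of Tlr3 ran from -0.36 to 2.96, that of Tlr9 from -1.13 to 0.09 and that of Tlr4 from -0.94 to 0.10.

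The members with intervals that left out 0 were Tlr6 and Tlr7 at rest and Ly86 and Unc93b1 at 3 h. Tlr6 was 1.46-fold lower in resting c-k/o cells (log2 -0.54, standard error 0.189, adjusted p = 0.269), and its adjusted p was 0.175 to 0.689 in the 15 alternatives. Tlr7 was 1.21-fold higher in resting c-k/o cells (log2 0.28, standard error 0.107, adjusted p = 0.338). It was called in 2 of 15 alternatives, without both libraries that stood apart (0.29, adjusted p = 0.0439) and by DESeq2 with a factor of unwanted variation (0.31, adjusted p = 0.0228). At 3 h the sign of Tlr7 was the opposite, at -0.22 (-0.45 to 0.01, adjusted p = 0.33). Over the 15 alternatives it ran from -0.36 to -0.10 at 3 h, with an adjusted p of up to 0.735, and was called in 1. That alternative left out replicate 3 of the 3-h c-k/o cells, the one that reached the Cre-only range (-0.36, adjusted p = 0.0377). It kept replicate 1, which stood apart.

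Ly86 was 1.34-fold higher in c-k/o cells at 3 h (log2 0.42, standard error 0.122, adjusted p = 0.102). Over the 15 alternatives its adjusted p ran from 0.00351 to 0.295, and it was called in 5 of them. Among those calls, it was 0.55 without replicate 3 of the 3-h c-k/o cells (adjusted p = 0.016) and 0.31 without both libraries that stood apart (adjusted p = 0.0432). Unc93b1 was 1.21-fold higher (log2 0.27, standard error 0.0992, adjusted p = 0.203) and was called in 2 of 15 alternatives, both with DESeq2. All alternatives kept the sign of both.

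The change of each gene on activation was also compared between the genotypes. This interaction was called for 0 of the 10 genes by edgeR, where 0.0813% of all tested genes were called, and by DESeq2 for 0, where it called 0.584%. At an unadjusted p under 0.05 there was 1, Tlr7, where 5.07% of all tested genes were. Its rise was smaller in c-k/o cells by 0.49 on the log2 scale (95% interval of the difference -0.82 to -0.17, adjusted p = 0.579), and the sign held in all 20 alternatives. It was called in 1 of them, DESeq2 with a factor of unwanted variation (-0.45, adjusted p = 0.0167). The intervals of Tlr6 from -0.18 to 1.15, of Unc93b1 from -0.04 to 0.57 and of Tlr1 from -0.34 to 0.51 included 0.

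The other genes of the pathway were taken from 7 lists. Of 6 other Toll-like receptors, 4 were tested and all 4 were called lower in both genotypes, where 36.4% and 36.6% of all tested genes were. As for Tlr3, those of Tlr8 and Tlr13 rest on few counts at 3 h and on a filter passed through the resting libraries. Tlr2, the partner of Tlr1 and Tlr6, was at 8.80 to 9.22 normalized CPM in resting and 2.22 to 2.74 in 3-h Cre-only cells. Tlr8, the X-linked relative of Tlr7, had 76, 59 and 65 counts in resting and 5, 3 and 3 in 3-h Cre-only cells, and 43, 60 and 54 against 0, 4 and 1 in c-k/o cells. Its fitted change was -4.13 and -4.89 on the log2 scale, and the latter was -6.44 without replicate 2 of the 3-h c-k/o cells. Tlr13, a sensor of bacterial ribosomal RNA, had 48 to 76 counts in resting and 0 to 7 in 3-h Cre-only cells, and 31 to 55 against 2 to 8 in c-k/o cells. Both were at 4.03 normalized CPM or less in every library, and the part of macrophages in their values and in those of Tlr2 was not tested. Tlr12 fell by 1.11 and 1.12. Tlr5 and Tlr11 were too low for the test, with at most 9 counts in any library. Tlr7 and Tlr8 share no window of 50 bases.

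Of 4 ligand-binding partners, 3 were tested. Cd14, which hands lipopolysaccharide to Tlr4 and is also a macrophage marker, had 73, 62 and 88 counts in resting and 7, 1 and 8 in 3-h Cre-only cells, and 52, 152 and 112 against 7, 17 and 6 in c-k/o cells. Its fitted change of -3.78 and -3.40, the latter -4.04 without replicate 2 of the 3-h c-k/o cells, has the same limit as that of Tlr3. Cd36, a lipid receptor that serves Tlr2 and Tlr6, fell by 1.08 and 0.57, and the second of these calls held in 13 of 15 alternatives. Ly96, the partner of Tlr4 that is related to Ly86, was at 2.28 to 3.08 in resting Cre-only cells. Its log2 fold change was -0.31 (adjusted p = 0.326) in Cre-only and -0.35 (adjusted p = 0.243) in c-k/o cells.

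All 11 tested genes of chaperones and endosomal handling were called on activation, 3 higher and 8 lower in each genotype, where 75.0% and 74.3% of all tested genes were called. Slc15a3, an endosomal peptide and histidine transporter, rose by 3.35 in Cre-only and 2.94 in c-k/o cells on the log2 scale, from 29.4 to 32.2 normalized CPM in resting Cre-only cells to 293 to 343 at 3 h. In resting c-k/o cells it was at 37.3, 94.5 and 35.5, the highest in replicate 2, which stood apart, and without this library the rise was 3.57. With 1 factor of unwanted variation in DESeq2 the rises were 2.34 and 2.04. Its relative Slc15a4, which is needed for signaling by Tlr7 and Tlr9 in several cell types, fell by 1.57 and 1.42. Hsp90b1, the endoplasmic reticulum chaperone that folds Toll-like receptors, rose by 1.01 and 1.06. Cnpy3, which works with Hsp90b1, rose by 0.75 and 0.68. The protease genes Ctss and Ctsl, whose products cut endosomal receptors into their active form, fell by 1.51 each in Cre-only cells and by 1.62 and 1.79 in c-k/o cells. For Ctsl the alternatives reached -2.24 and -2.52. Thus Unc93b1 and Slc15a4 fell while Hsp90b1 and Cnpy3 rose.

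Of the 5 other adaptors, the 4 besides Sarm1 were called higher at 3 h in both genotypes, against 38.6% and 37.7% of all tested genes. In c-k/o cells DESeq2 called 3 of the 5, where it called 10010 of the 13538 tested genes. Ticam1, the adaptor of Tlr3, rose by 1.80 and 1.41 and was at 57.9 to 68.9 in 3-h Cre-only cells, where Tlr3 was at most at 0.510. Ticam2, which links Tlr4 to Ticam1, rose by 1.18 and 0.71, and Tirap, which brings Myd88 to the surface receptors, by 0.49 and 0.34. In c-k/o cells the call of Ticam2 held in 13 of 15 alternatives and that of Tirap, whose groups overlapped, in 6 of 15. Sarm1 had 3, 9 and 6 counts in resting and 17, 8 and 9 in 3-h Cre-only cells, and 9, 2 and 5 against 10, 14 and 13 in c-k/o cells. It passed the low-count filter through 3-h libraries alone. Its fitted change was 0.88 in Cre-only (adjusted p = 0.103) and 1.19 in c-k/o cells (adjusted p = 0.0355), a call that held in 4 of 13 alternatives.

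Of 19 kinases and ubiquitin ligases, 6 rose and 7 fell in Cre-only cells, and 5 rose and 7 fell in c-k/o cells, beside the 75.0% and 74.3% of all tested genes called. DESeq2 called 15 of them in Cre-only and 12 in c-k/o cells, where it called 10091 and 10010 of the 13538 tested genes. Ube2n, which builds ubiquitin chains with Traf6, rose by 1.11 and 1.20, Ripk1 by 0.77 and 0.64 and Tab1 by 0.52 and 0.47, called in 14 and 13 of 15 alternatives. Ikbke fell by 0.72 and 0.79, Ikbkb by 0.66 and 0.72 and Irak2 by 0.53 and 0.67. Irak4, the kinase that binds Myd88, was at 0.02 and -0.04 (adjusted p = 0.867 and 0.721). Of 11 tested inhibitors, 8 fell in Cre-only and 9 in c-k/o cells, and none rose, where 36.4% and 36.6% of all tested genes fell. Sigirr, a receptor-like brake on Toll-like receptors, fell by 2.24 and 2.16 and Dok3 by 2.16 and 2.08. Lyn, a kinase that also acts in BCR signaling, fell by 1.60 and 1.50, and Irak3, the inhibitory member of its family, by 1.35 and 1.55, the latter by 0.96 with 1 factor of unwanted variation in edgeR. Of 8 end-point transcription factors, 5 rose and 2 fell in each genotype, against 38.6% and 37.7% of all tested genes that rose and 36.4% and 36.6% that fell. The risers included Nfkb1 with rises of 1.61 and 1.80, Irf3 with 0.88 in both and Irf8 with 0.78 and 0.67. With 1 factor of unwanted variation in DESeq2 the rises of Irf3 were 0.22 and 0.23.

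Between genotypes, 1 of the 61 tested genes of these lists was called by edgeR at rest and 3 at 3 h. Of all tested genes 1.49% and 2.77% were, so that the share at rest was near the background. DESeq2 called 2 at rest and 4 at 3 h, where it called 2.79% and 5.44% of all genes. An unadjusted p under 0.05 was found for 9 and 12, against 11.1% and 16.2% of all tested genes. In the interaction edgeR called none of the 61, where 0.0813% of all tested genes were called, and DESeq2 called 1, where it called 0.584%. An unadjusted p under 0.05 was found there for 4, against 5.07% of all tested genes. Irf7, the interferon regulatory factor that Tlr7 and Tlr9 activate through Myd88, was at 62.0, 52.7 and 64.5 in resting Cre-only and 133, 117 and 113 in resting c-k/o cells. At 3 h it was at 13.6, 12.6 and 19.1 against 50.6, 55.1 and 50.1. The genotypes did not overlap at either time, and Irf7 was higher by 1.02 at rest (adjusted p = 0.00289) and by 1.78 at 3 h (adjusted p = 7.17e-05). Both calls held in all 15 alternatives. Irf5, another factor activated through Myd88, was at 142, 142 and 143 in 3-h Cre-only and 214, 178 and 184 in 3-h c-k/o cells, higher by 0.43 (adjusted p = 0.0145). Its adjusted p was 0.0656 to 0.0763 without any 1 of the 3 Cre-only libraries and 0.0833 with only the groups compared. Map3k8, a kinase downstream of the receptors, was lower at 3 h by 0.59 on the log2 scale (adjusted p = 0.00582) and was called in all 15 alternatives.

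Markers of B cell subsets were read beside the genotype comparisons. Cr2, the complement receptor that is high on marginal zone B cells, made up most of the sum of the 5 marginal zone markers. It was at 818 to 1075 in resting Cre-only and 1225 to 1411 in resting c-k/o cells, and at 1913 to 2181 and 2271 to 2956 at 3 h. The other 4 summed to 294 to 352 and 290 to 385 at rest, with overlap. At 3 h they summed to 412 to 433 in Cre-only and 368 to 410 in c-k/o cells, lower without overlap, but they did not move together. Dtx1 at 208 to 215 against 180 to 206 and S1pr3 at 160.5 to 183.9 against 132.7 to 144.5 were lower. Cd9 was higher without overlap, at 32.0 to 42.9 against 48.6 to 64.9, and Cd1d1 overlapped. Of all tested genes 21.8% did not overlap at 3 h. By edgeR none of the 5 was called at either time. At an unadjusted p under 0.05 there were 3 at rest and 2 at 3 h, all higher in c-k/o cells, where 11.1% and 16.2% of all tested genes were. DESeq2 called 1 at rest, Cr2, and 0 at 3 h, where it called 2.79% and 5.44% of all genes. The 4 B1 B cell markers summed to 57.0 to 69.5 in resting Cre-only and 77.1 to 81.6 in resting c-k/o cells, and to 50.1 to 58.1 and 62.8 to 67.4 at 3 h, with all 4 fitted changes above 0 at both times. Of these, 2 at rest and 1 at 3 h had an unadjusted p under 0.05, against 11.1% and 16.2% of all tested genes. DESeq2 called 1 at each time, where it called 2.79% and 5.44% of all genes. By edgeR none was called at rest, and Spn was called at 3 h, at 0.73 (adjusted p = 0.0201). It was not called with only the groups compared (adjusted p = 0.11) or without replicate 2 (adjusted p = 0.0969) or replicate 3 (adjusted p = 0.0904) of the 3-h Cre-only cells or replicate 2 of the 3-h c-k/o cells (adjusted p = 0.0527). Of the 4 plasma cell markers 2 were lower and 2 higher in resting c-k/o cells. Sdc1 was called at -1.35 (adjusted p = 0.00157), while Prdm1 was at -0.23, Jchain at 0.45 and Xbp1 at 0.48, which were not called. The part of such subsets in the levels of Tlr7, Tlr9 and Cd180 was not tested.

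The genes with the most similar profiles over the 12 samples were found by the root-mean-square difference of log2 normalized CPM, each gene centered on its mean. Myd88 had the closest neighbors, Itpkc at 0.05 and Rap1a at 0.06. Those of Unc93b1 were Ucp2 at 0.07 and Plekho1 at 0.09, those of Tlr7 Wdr59 at 0.08 and E330009J07Rik at 0.09, and those of Ly86 Cox7a2l at 0.09 and Plbd1 at 0.10. Cd180 and Tlr4 shared a neighbor, Siae, at 0.10 from Cd180 and 0.15 from Tlr4, beside Nedd9 at 0.11 and Slc38a9 at 0.14. For Tlr1, Phf21a was at 0.11, and Tlr9 was nearest to Pigb and Zfp26, both at 0.12. Tlr6 was at 0.13 from Tcea3 and 0.16 from Zfp287. Tlr3 had the least close neighbors of the 10, Trim30b at 0.29 and Bcl2 at 0.31. All points share these libraries, and the step between rest and 3 h is part of each profile.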

How the data were processed

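RNA was sequenced from 4 groups of 3 samples, as given by the sample labels. Per the labels and the study's methods, the authors sequenced stranded mRNA libraries in read pairs, aligned them to mm9 and deposited raw counts per Ensembl gene, not normalized. The submitters' processing notes name CASAVA 1.8.4, TopHat2 2.0.11 and featureCounts. The strand setting and the treatment of reads with several alignments are not given in the sources used here. The spike-in RNA that the authors added was not used here, so levels are relative to library size.

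Tables were made with Python 3.11.15 and pandas 2.3.3, and models with R 4.3.3. Genes were kept by filterByExpr of edgeR 4.0.16 (minimum 10 counts), which left 13538 of 37991, normalized by TMM and tested by edgeR's robust quasi-likelihood F test over all 12 samples with 1 term per group. P-values were adjusted by Benjamini-Hochberg over all tested genes, with a threshold of 0.05. Standard errors and 95% intervals are those of the fit. The models were tested on simulated data. Profiles used log2 of normalized CPM plus 0.5. Gene models were GENCODE for mm9 and promoters RefSeq for GRCm38.p6. With 3 samples against 3, single genes were not tested by permutation.

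The members and the gene lists were chosen with earlier results of these data known. Some genes of the marker lists and of the similar profiles are not reported here, and the marker sums leave them out. All members are named with every sample's value. Of each list, genes called by edgeR between genotypes are named, and those called by DESeq2 alone are not all named. Of the pathway genes called on activation alone, the 3 largest changes in each direction in Cre-only cells are named. Alternatives were DESeq2's size factors, no filter, DESeq2 1.42.0 with its Wald test, a stricter filter of 10 counts per sample, 1 RUVs factor (computed from replicate differences) in edgeR or DESeq2, a replicate block, only the groups compared and each sample left out. The removal of both libraries that stood apart was added after the data were seen.

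Replicate numbers were checked for pairing by the correlation of deviations from the group means. Resting and 3-h Cre-only samples of the same number correlated at 0.309, 0.211 and 0.175, and those of different numbers at -0.209 to -0.0105. These numbers may thus pair the samples, though the labels give only a replicate number. The main fit used no pairing, and the replicate block was an alternative to it. No library was a copy of another within counting noise. Counts carry no molecular identifiers, so the floors of 3 counts cover counting error only.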

Additional observations from a re-analysis of the deposited data

How the results depend on the processing

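Of 794 values of the members' log2 fold changes under alternative settings, 749 kept their direction and their side of the threshold. The counts of members called on activation stayed within 8 to 10 in both genotypes. Between genotypes at rest, 1 member was called by DESeq2 with 1 RUVs factor and 1 without both libraries that stood apart, in each case Tlr7. At 3 h, 2 were called by DESeq2, 1 by edgeR with 1 RUVs factor, 2 by DESeq2 with 1 RUVs factor and 1 without both libraries, and 0 to 2 with each replicate left out. In the interaction, 1 was called by DESeq2 with 1 RUVs factor. The cause was not tested.

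None of the values whose sign turned was called. With 1 RUVs factor the resting genotype difference of Tlr1 was 0.031 in edgeR and 0.027 in DESeq2, and the 3-h difference of Tlr6 was 0.024 in edgeR and 0.057 in DESeq2. In edgeR with this factor, Myd88 at 3 h was -0.014. Without both libraries these values were 0.029 for Tlr1, 0.057 for Tlr6 and -0.029 for Myd88, while Unc93b1 at rest was -0.007 and the interaction of Tlr9 was 0.059. Unc93b1 at rest was also -0.01 with at least 10 counts in every sample and -0.011 with only the groups compared. With each replicate left out in turn, the resting difference ran from -0.104 to 0.023 for Tlr1 and from -0.019 to 0.038 for Unc93b1. The 3-h difference then ran from -0.116 to 0.213 for Tlr1, from -0.217 to 0.119 for Tlr6 and from -0.028 to 0.142 for Myd88. The interaction ran from -0.071 to 0.271 for Tlr1, from -0.022 to 1.666 for Tlr3 and from -0.509 to 0.197 for Tlr9.

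With 1 RUVs factor the change of Tlr9 on activation was 1.74 in edgeR and 1.63 in DESeq2 in Cre-only cells, and 1.53 and 1.46 in c-k/o cells, with adjusted p-values from 1.36e-13 to 0.00026. With the replicate block 9 members were called on activation in each genotype and 0 in each other comparison, so that it changed no member's call. Same-numbered resting and 3-h Runx1 c-k/o samples correlated at -0.324, -0.316 and 0.330, and those of the genotypes between -0.0911 and 0.102, so these share only a number. In comparisons that use them, the block joined samples by number alone and is no check on pairing. Differently numbered c-k/o samples correlated at -0.502 to 0.551, highest between the 2 libraries that stood apart, so that these deviated together. Level per length with the longest transcript moved beyond 1 SD in 16 of 24 cases. Counts per library of Tlr3 at 3 h, 1 to 15, limit its fold change.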
